A study of Mus musculus with 10 samples.

Results

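The Wnt negative feedback targets examined here were Axin2, Notum, Nkd1, Sp5, Znrf3, Rnf43 and Apcdd1, chosen by gene name, and all 7 were found among the 16875 gene names of the expression table. RNA had been sequenced from 10 colon tumors of C57Bl6 mice, 5 control and 5 Villin-WlscKO, cut out as whole tissue pieces. The tumors arose after azoxymethane (AOM), a carcinogen, and 3 cycles of 2% dextran sulfate sodium (DSS), which injures the colon, in mice aged 6 to 10 weeks at the start. Control tumors were labeled Wls WT, and the study names Wls flox/flox alleles without Cre as the control genotype of its tumor organoids. Villin-WlscKO mice carried floxed Wls alleles together with Villin-Cre ERT2, a tamoxifen-inducible recombinase driven in intestinal epithelium. Fibroblasts and immune cells therefore keep Wls in both groups. Villin-WlscKO mice received 5 daily tamoxifen injections of 80 mg/kg, the first of them 30 days before the tumors were taken. Control tumors are taken as those without tamoxifen, which the legend of the study's first figure gives as the control where nothing else is said. How many mice the tumors came from is not stated, so n counts tumors. The tests set each difference against the spread between tumors and treat the tumors as independent, which tumors of the same mouse may not be.

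Wnt proteins reach their receptors only after Wls has carried them to the cell surface. At the target cell they bind Frizzled and LRP receptors, which stops the destruction complex from degrading β-catenin, and β-catenin then switches on genes together with TCF/LEF factors in the nucleus. Some of these genes encode brakes on the pathway itself. Notum is a secreted enzyme that strips the lipid from Wnt proteins, and Apcdd1 is a membrane protein that binds Wnt and its co-receptor. Znrf3 and Rnf43 are membrane ubiquitin ligases that remove Frizzled from the cell surface and are held back by R-spondins. Axin2 is a scaffold of the destruction complex, Nkd1 acts on Dishevelled in the cytoplasm, and Sp5 is a zinc finger factor that dampens transcription of other TCF/LEF targets. In the intestine these genes are read as a measure of Wnt activity, which is highest at the crypt base and in many colon tumors.

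Promoters of 4 of the 7 genes were in the RefSeq table of GRCm38.p6, and those of Sp5 and Axin2 are printed because both genes lay apart between the groups and fell by a like amount. The letters CTTTGA, the core that TCF/LEF factors bind, were sought on both strands (TCAAAG on the other) in the 250 bases before each start site and are in capitals. They were found 2 times before Sp5, 204 and 104 bases before the start as counted from the first letter of the match, and 0 times before Axin2, Nkd1 and the 2 listed starts of Rnf43. The Nkd1 window (chr8:88527383-88527632) and both Rnf43 windows (from chr11:87662837 and chr11:87699647) lie inside the gene spans given below. Their counts thus do not cover the bases before the gene starts of those spans. Of 32851 mouse promoter windows of this length, 13.8% held at least 1 match and 1.37% held 2 or more. The windows are chr2:70474673-70474922 on the plus strand for Sp5 and chr11:108920099-108920348 on the plus strand for Axin2.
Sp5: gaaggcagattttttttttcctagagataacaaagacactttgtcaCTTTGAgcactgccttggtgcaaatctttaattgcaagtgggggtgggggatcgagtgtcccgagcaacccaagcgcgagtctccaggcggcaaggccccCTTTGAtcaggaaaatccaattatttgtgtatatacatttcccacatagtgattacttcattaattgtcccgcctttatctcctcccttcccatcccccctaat
Axin2: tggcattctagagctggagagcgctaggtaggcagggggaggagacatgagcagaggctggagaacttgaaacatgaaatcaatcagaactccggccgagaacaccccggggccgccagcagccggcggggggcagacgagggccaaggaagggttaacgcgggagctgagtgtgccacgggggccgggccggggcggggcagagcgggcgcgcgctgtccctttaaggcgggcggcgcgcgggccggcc

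The deleted gene was checked first. Wls lies on chromosome 3 between 159839672 and 159938664 (GRCm38, positions from GENCODE M21) and was at 76.4, 72.4, 61.3, 74.7 and 79.9 FPKM in control tumors 1 to 5. The corresponding values in Villin-WlscKO tumors 1 to 5 were 2.81, 11.6, 11.7, 3.61 and 2.03 FPKM. FPKM counts fragments per kilobase of transcript, scaled for the number of mapped reads, so that levels of different genes can be set side by side. Wls was thus low in each Villin-WlscKO tumor (log2 change -3.59, limma adjusted p = 0.000337), and tumors 2 and 3 had the most. Those tumors also stood apart by squamous keratin: Krt5 was at 469.5 and 669 FPKM in them and at most 0.315 FPKM in the other 8, so results are also given without them. Expression of sex-linked genes differed between the groups as well, with Xist at 439 FPKM or more in every Villin-WlscKO tumor and at 0.420 FPKM or less in every control tumor, and the Y-chromosome gene Eif2s3y at 30.4 FPKM or more in controls and 0.138 FPKM or less in Villin-WlscKO tumors. Genotype, sex and tamoxifen therefore cannot be told apart in any comparison below. Read counts could not be taken from the FPKM, so the depth is unknown and the error is that between tumors.

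All 7 feedback targets had a lower mean in Villin-WlscKO tumors, and 5 of them (Axin2, Notum, Sp5, Znrf3 and Apcdd1) fell past the threshold, a limma adjusted p under 0.05 over all 16757 genes with a mean of at least 0.5 FPKM. Of all genes tested, 4.75% were lower past that threshold and 6.12% higher. For 6 of the 7, all but Rnf43, every Villin-WlscKO tumor lay below every control tumor, which held for 4.76% of all genes, while 5.33% lay wholly above. The exact permutation test gave p = 0.00794 for each of these 6, the smallest it can give, whatever the size of the change. The median log2 change of the members was -0.71, while the median over all genes was 0.0073. The members and the comparison were chosen with earlier results of these tumors known. The values of the 7 genes were shared with no other gene name. Among all gene names, 2419 had the same values as another name, and such names were not removed from the shares of all genes.

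**Figure D1:**
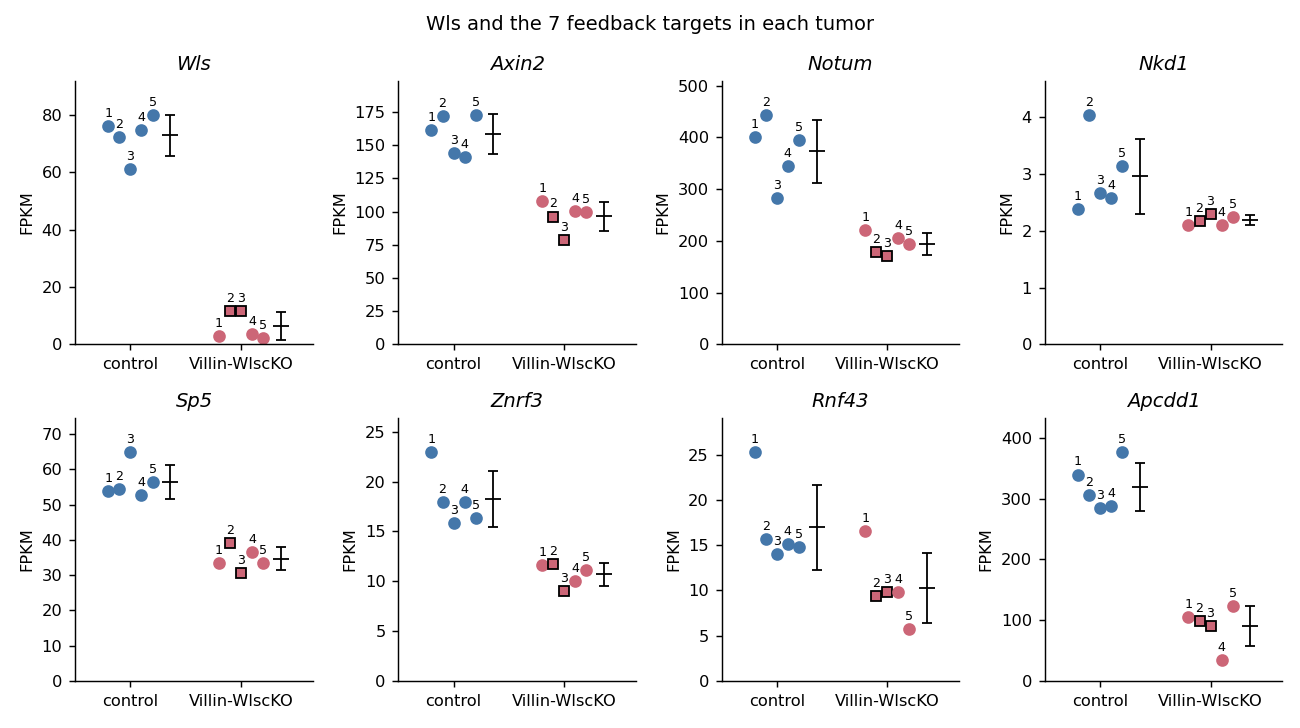
FPKM of Wls and of the 7 feedback targets in every tumor, with control tumors in blue and Villin-WlscKO tumors in red, the tumor number above each point, squares for Villin-WlscKO tumors 2 and 3, and mean ± SD (n = 5) at the side. Except for Rnf43, every Villin-WlscKO point lies below every control point of the same gene.

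Among the secreted and membrane-bound brakes, Apcdd1 fell most. Apcdd1, at chromosome 18 from 62922231 to 62961179, was at 339.5, 306, 285, 287 and 376 FPKM in control tumors 1 to 5. Villin-WlscKO tumors 1 to 5 had 106, 98.1, 90.1, 34.2 and 123 FPKM. The groups lay far apart, and tumor 4 was the lowest by a wide margin. The control mean was 319 ± 39.0 FPKM and the Villin-WlscKO mean 90.2 ± 33.6 FPKM (SD, 5 tumors each), 28.3% of control. On the log2(FPKM + 1) scale, used for all log2 changes of a gene, Apcdd1 changed by -1.92 (standard error 0.29, limma adjusted p = 0.00269). Without Villin-WlscKO tumor 4 the change was -1.60.

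Notum, at chromosome 11 from 120653788 to 120661175, had the highest level of the 7 genes in control tumors. It was at 402, 443, 283, 344 and 395 FPKM in control tumors 1 to 5. Notum in Villin-WlscKO tumors 1 to 5 measured 222, 178, 171, 206 and 193 FPKM. Every Villin-WlscKO tumor was below the lowest control, tumor 3. The means were 373 ± 61.2 and 194 ± 20.5 FPKM (SD, 5 tumors each), the latter 51.9% of control, and on the log2 scale Notum changed by -0.93 (standard error 0.12, limma adjusted p = 0.00109). On the opposite strand the Notum gene overlaps the antisense genes Notumos and Myadml2os, which shared 1 set of values, between 25.4 and 40.2 FPKM in control and between 14.2 and 18.0 FPKM in Villin-WlscKO tumors. Whether strand was used in the quantification is not given in the sources used here, so reads of Notum and of these genes may not be fully separated.

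The ubiquitin ligases Znrf3 and Rnf43 were measured at similar levels and differed in their spread. Znrf3, at chromosome 11 from 5276324 to 5444847, was at 23.0, 18.0, 15.9, 18.0 and 16.4 FPKM in control tumors 1 to 5. Its values in Villin-WlscKO tumors 1 to 5 were 11.7, 11.7, 9.06, 9.98 and 11.1 FPKM. The groups did not overlap, and the log2 change was -0.71 (standard error 0.11, limma adjusted p = 0.00296), a mean of 58.7% of control. Rnf43, at chromosome 11 from 87662722 to 87735539, was at 25.3, 15.7, 14.0, 15.1 and 14.8 FPKM in control tumors 1 to 5. The 5 Villin-WlscKO tumors had, in order, 16.5, 9.38, 9.80, 9.85 and 5.76 FPKM. Here the groups overlapped, since Villin-WlscKO tumor 1 lay above 4 of the 5 control tumors, and the other 4 Villin-WlscKO tumors lay below all controls. The Rnf43 mean was 60.4% of control and its log2 change was -0.71, as for Znrf3, but with a standard error of 0.24 it did not pass the threshold (95% interval -1.23 to -0.18, limma adjusted p = 0.0857, exact permutation test p = 0.0397). Without Villin-WlscKO tumor 1 the Rnf43 change was -0.88 and passed (limma adjusted p = 0.0263). Tumor 1 held the highest Rnf43 value in each group, and control tumor 1 also held the highest Znrf3 value. An intronic transcript on the same strand of Rnf43, 1110028F11Rik, was at higher FPKM than Rnf43, from 83.7 to 103 in control and from 55.6 to 72.8 in Villin-WlscKO tumors, so the assignment of reads between them is uncertain.

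Of the brakes that act inside the cell, Axin2 and Sp5 had narrow spreads. Axin2, at chromosome 11 from 108920349 to 108950783, was at 162, 172, 144, 141 and 173 FPKM in control tumors 1 to 5. Villin-WlscKO tumors 1 to 5 were at 108, 96.3, 78.6, 100.2 and 99.4 FPKM. The mean of Axin2 was 60.9% of control, with the lowest value in Villin-WlscKO tumor 3 and no overlap between the groups (log2 change -0.71, standard error 0.095, limma adjusted p = 0.00121). Its coefficient of variation was 9.38% in control and 11.3% in Villin-WlscKO tumors. The antisense gene Gm11670 that overlaps Axin2 was at 3.87 FPKM or less in all 10 tumors.

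Sp5, at chromosome 2 from 70474923 to 70477729, was at 53.8, 54.4, 64.9, 52.6 and 56.5 FPKM in control tumors 1 to 5. The Villin-WlscKO tumors were, from 1 to 5, at 33.5, 39.0, 30.7, 36.6 and 33.4 FPKM. Sp5 fell to 61.4% of control with no overlap (log2 change -0.69, standard error 0.082, limma adjusted p = 0.000583). Control tumor 3, which had the lowest Notum, Znrf3, Rnf43 and Apcdd1 of its group, had the highest Sp5.

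Nkd1, at chromosome 8 from 88521354 to 88594884, was the least abundant of the 7 genes. It was at 2.39, 4.04, 2.67, 2.58 and 3.14 FPKM in control tumors 1 to 5. Nkd1 in Villin-WlscKO tumors 1 to 5 was at 2.11, 2.18, 2.30, 2.10 and 2.25 FPKM. The Villin-WlscKO values lay close together, with a coefficient of variation of 3.92% against 22.3% in control tumors, and all were below the lowest control by a small margin. The mean was 73.8% of control. The log2 change of -0.30 (standard error 0.12, 95% interval -0.56 to -0.040) did not pass the threshold in limma (adjusted p = 0.136), while the exact permutation test gave the smallest p it can give, 0.00794. At this level the added 1 shrinks the log2 change, and with 0.1 in its place the change was -0.40 (limma adjusted p = 0.136).

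**Figure D2:**
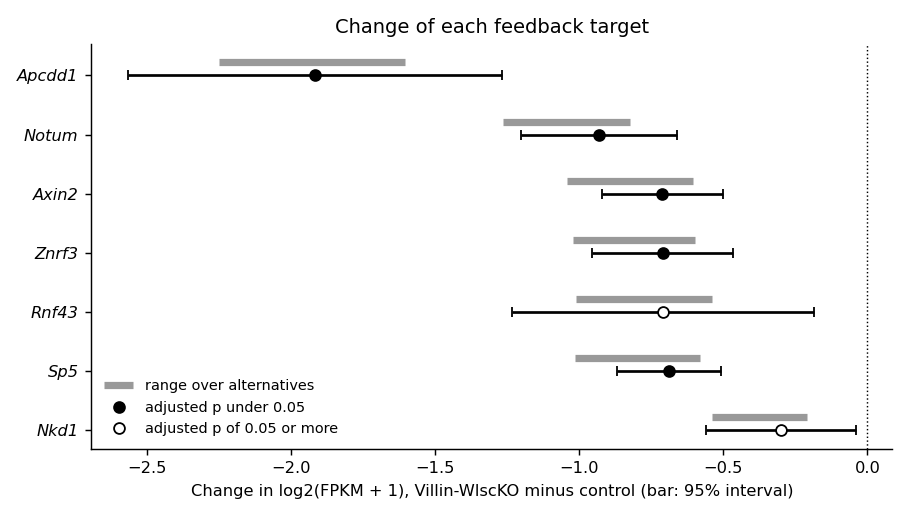
Change in log2(FPKM + 1), Villin-WlscKO minus control, of each feedback target with its 95% interval (points and thin bars, filled where the limma adjusted p was under 0.05) and the range over the alternative settings (grey bars). All points lie left of 0, from -0.30 for Nkd1 to -1.92 for Apcdd1.

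Whether some brakes fell more than others was examined by the log2 ratio of 2 members within each tumor, which a scaling factor per tumor leaves as it is. Of 21 pairs, 6 differed between the groups at an adjusted p under 0.05 (two-sided exact permutation test, Benjamini-Hochberg adjustment over the 21 pairs), and 5 of these involved Apcdd1. Apcdd1 fell more than Axin2, with a log2 ratio of Axin2 to Apcdd1 of -1.07, -0.83, -0.98, -1.02 and -1.13 in control tumors 1 to 5. In Villin-WlscKO tumors 1 to 5 the same ratio was 0.03, -0.03, -0.20, 1.55 and -0.31. It was higher in every Villin-WlscKO tumor, by 1.21 on average (95% interval 0.70 to 1.88, exact permutation p = 0.00794, adjusted p = 0.0278). Differences of 1.00 against Notum, 1.17 against Znrf3, 1.23 against Sp5 and 1.52 against Nkd1 had the same adjusted p of 0.0278 in the exact test. Against Rnf43 the difference of 1.16 did not pass (adjusted p = 0.104, exact permutation test). In Villin-WlscKO tumor 4 every ratio to Apcdd1 was the highest of its group, with 2.59 for Notum to Apcdd1 against 0.65 to 1.07 in the others. The sizes of these differences thus depend on tumor 4, although the groups did not overlap in the 5 Apcdd1 pairs that passed.

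Among the 15 pairs without Apcdd1, 1 passed: Notum fell more than Nkd1, with a change of -0.52 in the log2 ratio of Notum to Nkd1 (95% interval -0.89 to -0.18, exact permutation test, adjusted p = 0.0278). Its exact p was the smallest possible, which for a single such pair among the 21 would be adjusted to 0.167. That it passed thus depends on the 5 Apcdd1 pairs with the same exact p. Notum also changed by 0.22 more than Axin2 (95% interval 0.017 to 0.39), which did not pass after adjustment (exact permutation test, adjusted p = 0.0952). The falls of Axin2, Sp5 and Znrf3 were not told apart, with intervals for the difference of -0.28 to 0.26 for Axin2 to Sp5, -0.21 to 0.34 for Axin2 to Znrf3 and -0.26 to 0.40 for Sp5 to Znrf3. Znrf3 and Rnf43 differed by 0.0075 with a wide interval of -0.52 to 0.63. Without Villin-WlscKO tumors 2 and 3 the smallest possible exact p is 0.0357, and 0 of the 21 pairs passed after adjustment.

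**Figure D3:**
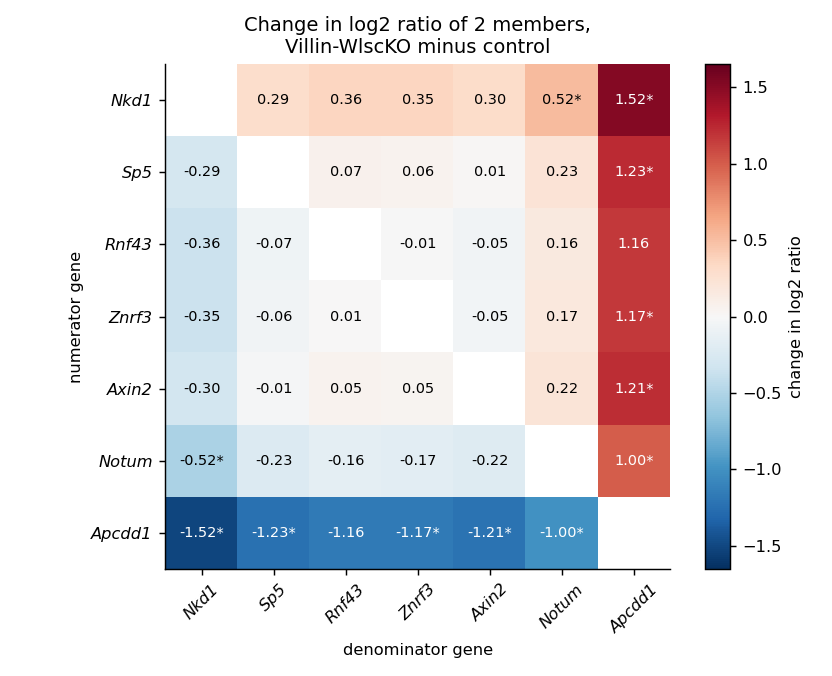
Change in the log2 FPKM ratio of 2 feedback targets, Villin-WlscKO minus control, with the row gene as numerator, the column gene as denominator and an asterisk where the adjusted p of the exact permutation test was under 0.05. The values in the Apcdd1 column run from 1.00 to 1.52, whereas those among Axin2, Sp5, Znrf3 and Rnf43 stay between -0.07 and 0.07.

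The order of the levels was compared between the groups. In control tumors the means descended from Notum through Apcdd1, Axin2, Sp5, Znrf3 and Rnf43 to Nkd1. Notum was above Apcdd1 in 4 of 5 control tumors and Znrf3 above Rnf43 in 4 of 5, so these neighbors were not separated in each tumor. The other 4 steps held in all 5 control tumors. In Villin-WlscKO tumors Notum was above Apcdd1 in 5 of 5, but Apcdd1 was above Axin2 in 3 of 5 only. The mean of Apcdd1 (90.2 FPKM) was below that of Axin2 (96.5 FPKM), with Apcdd1 at 34.2 FPKM in tumor 4. In tumor 1 the 2 genes were nearly level, at 106 and 108 FPKM. Znrf3 was above Rnf43 in 3 of 5, and the steps from Axin2 to Sp5, Sp5 to Znrf3 and Rnf43 to Nkd1 held in 5 of 5.

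No correlation of the members with Wls or with one another was computed over the 5 tumors of a group, and the values are described in the order of Wls. In Villin-WlscKO tumors the order of Wls from low to high was tumor 5, 1, 4, 2 and 3. Tumors 2 and 3, with the most Wls, were the lowest pair for both Axin2 and Notum, while tumor 1, with 2.81 FPKM of Wls, was highest for both. Tumor 3 was also lowest for Sp5 and Znrf3, and tumor 2 was highest for both. Among these 5 tumors more Wls in the whole piece did not go with more Axin2 or Notum. Tumors 2 and 3 were also the squamous keratin-rich ones and had the highest summed FPKM of immune markers in their group (529 and 471). S100a8 made up most of these sums (487 and 422 FPKM). Wls of a whole piece includes that of cells without Cre, so the amount left in epithelium is unknown. Tumor 5, lowest for Wls, was highest for Apcdd1 and lowest for Rnf43. Nkd1 was highest in tumor 3 and lowest in tumor 4, within a narrow range. In control tumors the lowest Wls was in tumor 3, which was lowest for 4 of the 7 members, and control tumor 4 lay below the group mean for all 7. Axin2, Notum and Apcdd1 had their 2 lowest control values in the same tumors, 3 and 4, and the highest control values of Axin2 and Apcdd1 were both in tumor 5, which also had the most Wls. Other values went against the order of Wls. Control tumor 2, with the next lowest Wls (72.4 FPKM), had the highest Notum and Nkd1 of its group. Control tumor 4 was above the group mean for Wls, and control tumor 5 had the next lowest Znrf3 and Rnf43. Control tumors 3 and 4 also had the highest summed FPKM of fibroblast markers in their group (1018 and 699, against 493 or less). The same held for the sum of immune markers (305 and 207, against 158 or less), most of which was S100a8 (277 and 160 FPKM). Of the other immune markers, Ptprc, Cd3e, Cd68 and Csf1r were highest in control tumor 4, and Cd8a was lowest in control tumor 3. The part of tissue composition in the low member values shared by control tumors 3 and 4 was not tested.

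**Figure D4:**
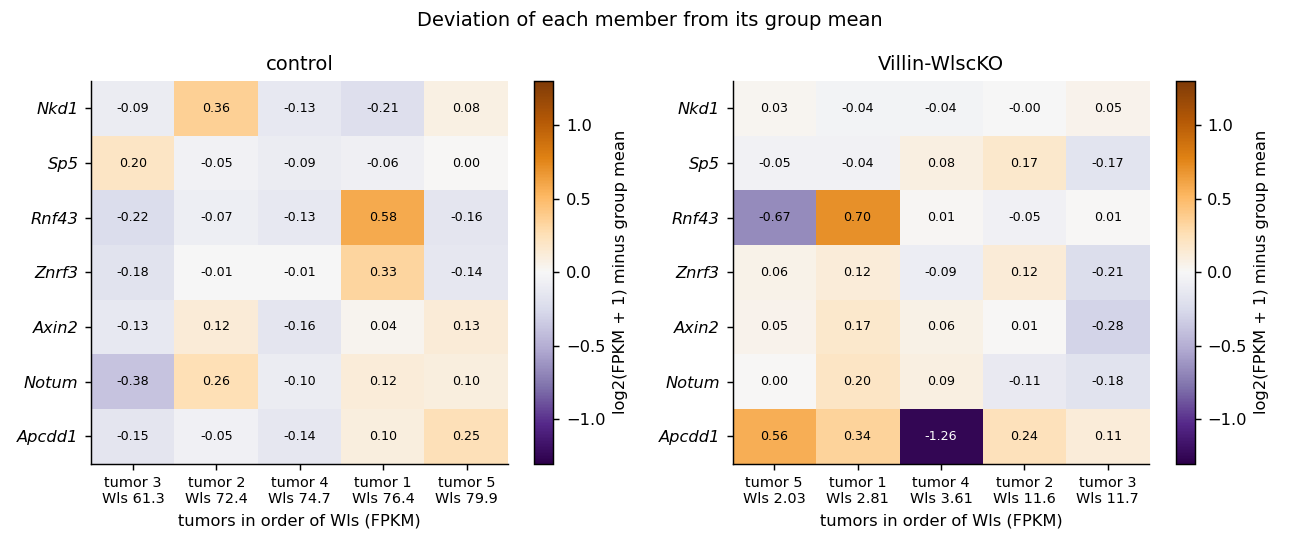
Deviation of each feedback target from the mean of its own group in log2(FPKM + 1), for control tumors (left) and Villin-WlscKO tumors (right), with the tumors in order of their Wls FPKM. The largest deviations are -1.26 for Apcdd1 in Villin-WlscKO tumor 4 and 0.70 and -0.67 for Rnf43 in Villin-WlscKO tumors 1 and 5, whereas Nkd1 stays within 0.05 of its mean in all 5 Villin-WlscKO tumors.

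The samples were whole tumor pieces, in which fewer cells of a type and less RNA per cell cannot be told apart, so markers of the cells in them were measured beside the feedback targets. The 9 epithelial and colon markers had a mean log2(FPKM + 1) of 8.14 ± 0.18 in control tumors and 8.48 ± 0.17 after Wls deletion (SD over the 5 tumors), a difference of 0.33 (exact permutation test, p = 0.0238), although 0 of the 9 passed alone in limma. Among them Epcam was at 986 ± 46.3 and 1120 ± 181 FPKM (SD, n = 5 in each group). When each tumor was scaled by these markers, the median of all genes became -0.28 and 20.8% of all genes were lower past the threshold. All 7 members passed at this setting, with Axin2 at -1.04, Nkd1 at -0.54 and Apcdd1 at -2.25, or -0.76, -0.26 and -1.97 relative to that median. The summed FPKM of 7 fibroblast markers ran from 281 to 1018 in control and from 380 to 1158 in Villin-WlscKO tumors, and 0 of 7 passed. That of 5 smooth muscle markers ran from 45.1 to 105 and from 58.4 to 110.4, and 0 of 5 passed. Of 6 immune markers, the T cell genes Cd3e and Cd8a rose, which reached at most 1.67 and 1.41 FPKM. The immune sums ran from 79.9 to 305 and from 216 to 529, and S100a8 made up most of the sum in each tumor. The 7 squamous genes summed to between 83.4 and 198 FPKM in control tumors and to 1108 and 1392 FPKM in Villin-WlscKO tumors 2 and 3, against 115 to 187 FPKM in the other 3. Of these genes 1 passed, Sprr1a, which was at 17.2 to 113 FPKM in control and at 104 to 145 FPKM in all 5 Villin-WlscKO tumors (limma adjusted p = 0.0302). Without tumors 2 and 3 the median log2 change of the members was -0.69 and 5 of 7 passed, beside 2.69% of all genes called lower. The part of immune and squamous cells in the falls was not tested.

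To place the 7 genes in their pathway, other negative regulators were listed, of which 29 of 38 were in the table and 28 could be tested. Of these, 5 were lower and 1 higher past the threshold, and 22 did not pass. The median log2 change of this list was -0.066, against -0.71 for the 7 feedback targets and 0.0073 for all genes. With an equal FPKM sum per tumor it was 0.037, beside a median of 0.097 for all genes. Dkk3, a secreted protein of the Dickkopf family, fell to 18.1 ± 1.39 FPKM, against 50.4 ± 6.08 FPKM in control tumors (SD over 5 tumors here and below). Dact1, which binds Dishevelled, fell from 4.11 ± 1.16 to 1.31 ± 0.507 FPKM (log2 change -1.15, limma adjusted p = 0.00454), and its relative Dact3 from 1.54 ± 0.158 to 0.614 ± 0.200 FPKM. Kremen1, a receptor for Dickkopf proteins (log2 change -0.56, limma adjusted p = 0.0165), and the co-repressor Tle3 (-0.50, limma adjusted p = 0.00409) were also lower, and Kremen1 did not pass with an equal FPKM sum per tumor. Sfrp1, a secreted Wnt-binding protein, rose from 1.10 ± 0.714 to 4.75 ± 2.69 FPKM (limma adjusted p = 0.0287) and did not pass without Villin-WlscKO tumors 2 and 3. Constant parts of the destruction complex did not pass, with Axin1 at 28.7 ± 1.43 and 28.1 ± 6.16 FPKM and Apc at 11.2 ± 1.43 and 11.9 ± 1.48 FPKM.

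Of 16 other genes known as Wnt/β-catenin targets in the intestine, 1 was lower, 2 were higher and 13 did not pass, with a median log2 change of 0.086. With scaling by epithelial markers it was -0.21, beside -0.28 for all genes. Tcf7, a TCF/LEF factor, fell from 51.6 ± 10.04 to 23.6 ± 3.92 FPKM (log2 change -1.09, limma adjusted p = 0.00156). Slc12a2, an ion transporter of crypt cells, rose from 54.2 ± 8.01 to 93.2 ± 13.1 FPKM (limma adjusted p = 0.00389), and Rgmb, a BMP co-receptor, rose by 0.60 on the log2 scale (limma adjusted p = 0.0467) but did not pass without Villin-WlscKO tumors 2 and 3. Neither Slc12a2 nor Rgmb passed with scaling by epithelial markers. The stem cell receptor Lgr5 was at 16.8 ± 6.88 and 27.3 ± 9.78 FPKM and the stem cell factor Ascl2 at 28.9 ± 8.06 and 22.2 ± 5.49 FPKM, with limma adjusted p of 0.239 and 0.299. Myc was at 63.2 ± 10.1 and 65.6 ± 5.42 FPKM and Sox9 at 35.4 ± 6.28 and 32.9 ± 7.66 FPKM. Lef1 was at 6.10 ± 1.76 and 4.23 ± 2.29 FPKM, with limma adjusted p of 0.309. The lists were described by counts and medians, and no difference between the lists was tested.

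**Figure D5:**
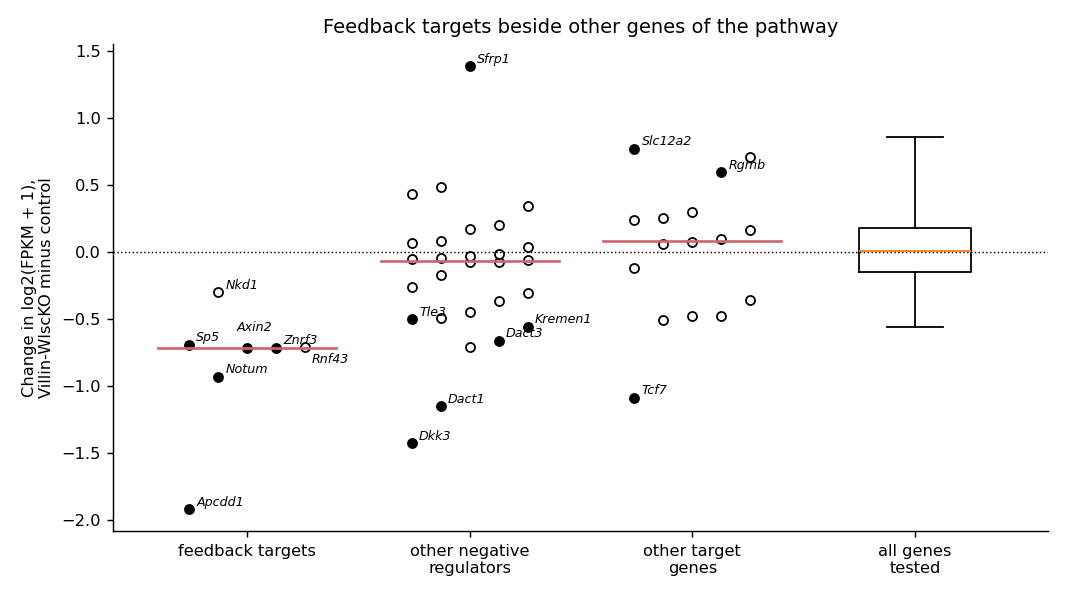
Change in log2(FPKM + 1), Villin-WlscKO minus control, of the 7 feedback targets, 28 other negative regulators and 16 other target genes (filled points have a limma adjusted p under 0.05, and red lines are medians), beside all 16757 genes tested (box with quartiles, whiskers at the 5th and 95th percentiles). The feedback targets lie between -1.92 and -0.30, and the other lists spread on both sides of 0.

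The genes outside the list whose profile over the 10 tumors came nearest to each member were named by the root mean square difference of log2(FPKM + 1) after subtracting the control mean. The search covered 9781 genes with a mean of at least 5 FPKM. Nearest to Apcdd1 was the ligand gene Wnt10a (0.28), which went from 50.3 to 13.2 FPKM in the means, followed by Dlx3 (0.33) and Mark1 (0.38). The nearest fellow member of Apcdd1 was Notum, at 0.86. Axin2 and Znrf3 were each other's nearest fellow member, at 0.16. Outside the list Axin2 was nearest to Maged2 (0.10), Nme4 (0.11) and Zbtb4 (0.13), and Znrf3 to Plekha1, Slc20a2 and Nme4 (0.10 to 0.11). Notum was nearest to Fgfrl1 (0.10), Sp5 to Mex3d (0.080) and Nkd1 to Zfp768 (0.065). Rnf43 was nearest to Zfp532, at 0.23. The nearest genes of Apcdd1 and Rnf43 were thus farther away than those of the other 5 members. The distance is not scaled for the spread of a gene. Apcdd1 and Rnf43 had the largest log2 SD of the members in Villin-WlscKO tumors (0.72 and 0.49), so their larger distances do not show that their profiles are rarer. The likeness of profiles is a description that includes the difference between the groups.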

How the data were processed

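Stranded mRNA libraries of 10 colon tumors were made from macrodissected, frozen tissue. According to the methods and the submitters' processing notes, the authors ran FastQC, aligned with TopHat2 2.1.1 against GRCm38.p5 and estimated expression with Cufflinks 2.2.1 and Cuffdiff. The deposited values are FPKM, 1 per gene name and tumor, and 0 columns were left unassigned. Annotation release and strand setting are not given in the sources used here. Depth is unknown, and precision rests on 5 tumors a group.

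All 16757 genes with a mean of at least 0.5 FPKM were fitted as log2(FPKM + 1) with limma 3.58.1 in R 4.3.3 (eBayes with trend, no covariate, two-sided, Benjamini-Hochberg adjusted p under 0.05), the method having been tested on simulated data. A fold change on this scale understates the change of low genes. Exact permutation tests over all 252 arrangements, which cannot give a p below 0.00794, and figures used Python 3.11.15, scipy 1.17.1 and matplotlib 3.10.9. Intervals of pair differences are the shifts that this test does not reject. Members, lists and tests were chosen with earlier results of these data known. Named genes were the members, Wls, list members and the 3 nearest profiles per member. Alternatives varied pseudocount, scaling, filter, variance model, weights, replicate block and tumors left out.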

Additional observations from a re-analysis of the deposited data

Results flagged for a closer look

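Rnf43 in control tumor 1, at 25.3 FPKM, lay far from the other 4 control tumors, which were between 14.0 and 15.7 FPKM. Dixon's criterion marked this value among 16 groups checked (7 members and Wls in each group), and chance alone marks about 1 in 20 groups. Without control tumor 1 the Rnf43 change was -0.56 in place of -0.71 and did not pass in either fit (limma adjusted p = 0.160 and 0.0857).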

How the results depend on the processing

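No change of a member or of Wls turned in direction under any of the 22 alternatives, and Wls, Axin2, Notum, Sp5, Znrf3 and Apcdd1 stayed past the threshold in each. Nkd1 could not be tested with a mean of at least 5 FPKM, passed only with scaling by epithelial markers (-0.54, limma adjusted p = 0.0291) and had an adjusted p of up to 0.366. Rnf43 passed with that scaling (-1.01, adjusted p = 0.0150), with the replicate block (-0.71, adjusted p = 0.0196) and without Villin-WlscKO tumor 1. Leaving out each tumor moved Rnf43 between -0.88 and -0.54. The number of genes past the threshold was 1822 (796 lower, 1026 higher), 4011 with scaling by epithelial markers (3492 lower, 519 higher) and 1101 without Villin-WlscKO tumors 2 and 3. It was 1783 (410 lower, 1373 higher) at an equal FPKM sum and 2018 (1125 lower, 893 higher) after quantile normalization. Of the 21 pairs, 6 passed, against 0 to 8 with each tumor left out (0 without control tumor 1, 4 or 5 or Villin-WlscKO tumor 1, 2, 3 or 4) and 0 without Villin-WlscKO tumors 2 and 3 together. With 4 tumors in a group the smallest exact p is 0.0159, which 6 pairs cannot carry past the adjustment, so these 0 counts follow from the smaller number of tumors. Tumors that share a replicate number did not deviate together (correlations of deviations from -0.087 to 0.16, with 2 of 5 control tumors closest to their own number), so the numbers were not taken as pairs, and the replicate block called 1627 genes and changed no other member's call. With scaling by epithelial markers 10 other negative regulators were lower in place of 5, 3 other target genes in place of 1, and 0 other target genes were higher in place of 2, so that Slc12a2 and Rgmb did not pass. Kremen1 did not pass with an equal FPKM sum, and neither did Rgmb, which also did not pass with tumor quality weights or the replicate block. Sfrp1 also did not pass without control tumor 1, 2 or 4 or Villin-WlscKO tumor 2, 3 or 4, and Rgmb did not pass without any single tumor other than control tumor 5. The unknown depth leaves the counting error of Nkd1, the lowest member, unknown.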
